A study of Mus musculus with 13 samples.

Results

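The genes described here are the nuclear genes of the mitochondrial respiratory chain, taken as every gene whose name in the scanner files begins with Nduf, Uqcr, Cox4 to Cox8 or Atp5, or is Sdha, Sdhb, Sdhc, Sdhd or Cyc1. The name rule gave 94 genes with 137 probes, out of 29978 genes or unnamed transcripts on the array. For 92 of the 94 at least 1 probe lay well above background on every array of a group, so that the gene could be tested, and 19489 genes and transcripts in all were tested. Cox7b2 was well above background on 1 array and Cox8c on 0, and neither was tested. Of the 94 genes, 91 were well above background on all 13 arrays. Not every gene found by name is a subunit: 7 of those tested are assembly factors of complex I, Cox7a2l is a supercomplex factor, and Atp5s, Atp5sl and the pseudogene Atp5c1-ps are set apart as well. The tested subunits were 36 of complex I, 4 of complex II, 9 of complex III, 17 of complex IV and 15 of complex V.

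The respiratory chain is a series of protein complexes in the inner mitochondrial membrane. Complex I (NADH dehydrogenase) and complex II (succinate dehydrogenase) pass electrons to coenzyme Q, complex III passes them to cytochrome c, and complex IV (cytochrome c oxidase) passes them to oxygen, while complex V (ATP synthase) uses the resulting proton gradient to make ATP. Most subunits are encoded in the nucleus and a few in mitochondrial DNA, and several subunits of complex IV exist as a widely expressed form and as a form of heart, skeletal muscle, brown fat, lung or testis. Hepatocytes are rich in mitochondria, which they use for fatty acid oxidation, gluconeogenesis and the urea cycle.

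The RNA came from livers of female C57BL6 mice, 12 weeks old, hybridized to 13 single-colour Agilent arrays. The groups were the diet labelled HFHS with vehicle (5 arrays), the standard diet labelled ST with vehicle (3 arrays), and the ST diet with a mixture of 4 pollutants (5 arrays). The series text calls HFHS a high-fat diet and does not make clear whether the mixture was added to it, whereas all 5 pollutant arrays are labelled ST, and the labels were followed. The labels call the arrays of a group biological replicates, and name neither the pollutants nor the composition of the diets. The comparison of each ST pollutants or HFHS value with ST vehicle rests on the same 3 control arrays. By the labels, HFHS vehicle and ST pollutants differ in both diet and mixture. The parts of diet and mixture cannot be told apart in the comparison of those groups. Levels below are log2 processed signals minus the 75th percentile of the array, so that 0 is the level of a probe brighter than 3 in 4 of the others, and they are compared only within a gene. Genes are described as called where limma gave an adjusted p under 0.05, by the Benjamini-Hochberg procedure over all 19489 genes.

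The arrays differed in brightness and in the transcripts of several cell types, some of which moved with the groups. The 75th percentile lay between 782 and 1354 intensity units, and the share of probes well above background ran from 62.8% to 69.5%. The mean level of 12 hepatocyte markers, all well above background on all 13 arrays, ran from 6.99 to 7.39 in HFHS, from 7.32 to 7.48 in ST vehicle and from 7.20 to 7.45 in ST pollutants. The mean of the 5 tested cholangiocyte markers was -2.85 to -2.55 in HFHS, below the -2.15 to -2.10 of ST vehicle, and -2.66 to -1.83 in ST pollutants. The 4 tested erythroid markers had means of 2.04 to 2.72, 1.98 to 2.32 and 2.42 to 2.97 in HFHS, ST vehicle and ST pollutants. Transcripts of pancreatic acinar cells had a mean level of 4.90, 3.63 and 6.99 on HFHS arrays 3, 4 and 5 and of -3.47 to -1.78 on the other 10 arrays. Skeletal muscle markers were high on 6 arrays spread over the 3 groups, and adipocyte markers on ST pollutants array 2, as described with the isoforms of complex IV. In bulk tissue fewer cells of a type and less RNA per cell cannot be told apart.

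Few genes passed the test in any comparison, in the chain as over all genes. Of the 92 tested genes 0 were called between HFHS vehicle and ST vehicle, where 0.688% of all genes were called, and 0 between ST pollutants and ST vehicle, where the share was 1.01%. At shares this low, 0 of 92 called says little about the chain. Between HFHS vehicle and ST pollutants 1 gene, Ndufaf2, was called, against 3.88% of all genes. At an unadjusted p under 0.05, HFHS exceeded ST vehicle in 2 genes and lay below it in 1 (4.98% and 7.11% of all genes), 2 were higher and 9 lower in ST pollutants than in ST vehicle (5.89% and 6.29%), and HFHS exceeded ST pollutants in 11 and lay below them in 1 (7.67% and 10.7%). The median log2 difference of the 92 genes was 0.03 for HFHS minus ST vehicle, -0.05 for ST pollutants minus ST vehicle and 0.07 for HFHS minus ST pollutants, and the corresponding medians of all genes were -0.02, -0.0089 and -0.0047.

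A p that misses the threshold does not show that 2 groups are alike, and the intervals give the sizes that remain possible. For the 75 subunits other than the tissue isoforms of complex IV and complexes' assembly factors, the 95% interval of the difference lay within 0.5 log2 units of 0 on either side (1.41-fold) in 75 cases for HFHS against ST vehicle, in 74 for ST pollutants against ST vehicle and in 74 for HFHS against ST pollutants. Over all 19489 genes the same held for 10172, 10100 and 11241. The median spread between replicates, as the SD within groups, was 0.117 log2 units for the 92 genes and 0.109 for complex I, against 0.204 for all genes.

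**Figure D1:**
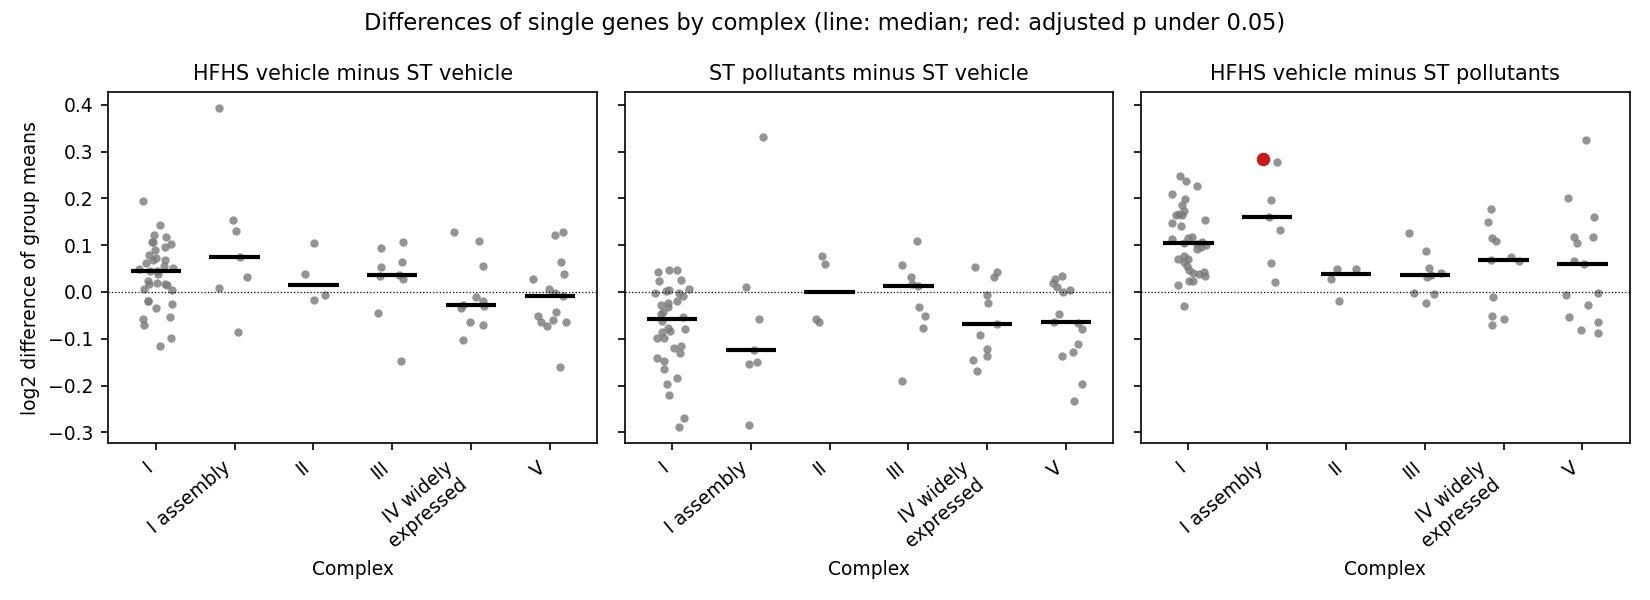
Log2 difference of the group means for each tested gene (points), by complex, in the 3 comparisons. The line is the median of the complex and the red point is Ndufaf2, the gene called between HFHS vehicle and ST pollutants. The 6 tissue isoforms of complex IV are left out of the plot, and the medians lie between -0.12 and 0.16.

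Complex I, the entry point for electrons from NADH, had nearly all of its genes on the same side of 0 in 1 comparison. Of its 36 tested subunits, 35 had a higher mean in HFHS vehicle than in ST pollutants. The median difference was 0.10, with a range from -0.03 to 0.25. In this comparison 48.9% of all genes lay above 0, and in complexes II to V the counts were 3 of 4, 6 of 9, 10 of 17 and 8 of 15. At an unadjusted p under 0.05, 7 of the 36 were higher (7.67% of all genes), and 0 passed the adjustment. The 36 genes share their arrays and are not independent. With normexp background correction, which moved the median of all genes to 0.09, the direction turned: 13 subunits were above 0 and 23 below, with a median of -0.04. With quantile normalization the median was 0.18 with 35 above 0, and in the values of the authors' deposited table it was 0.17, also with 35 above 0.

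The mean of the 36 subunits was 5.09, 5.18, 5.06, 5.15 and 5.25 on HFHS arrays 1 to 5, 5.08, 5.19 and 5.06 on the ST vehicle arrays, and 5.05, 5.00, 5.02, 5.06 and 5.05 on the ST pollutants arrays. The pollutant arrays lay close together and low, the HFHS arrays were more widely spread, and HFHS array 3 lay within the range of the pollutant arrays. Within slides the median difference HFHS minus ST pollutants was 0.02, 0.17, 0.04, 0.08 and 0.20 on slides 1 to 5. Without HFHS arrays 3, 4 and 5, which were high in acinar transcripts, it was 0.07, with 30 of 36 above 0. In the same comparison all 12 hepatocyte markers (median difference -0.12) and all 5 tested cholangiocyte markers (-0.62) had a lower mean in HFHS. So had all 11 tested skeletal muscle markers (-2.63), while all 11 tested acinar markers had a higher one (4.94). By limma 0 of these passed the adjustment, where 3.88% of all genes did. At an unadjusted p under 0.05 stood 3, 3 and 7 of the lower markers (10.7% of all genes) and 11 of the higher ones (7.67%). The part of these cell types in the complex I values was not tested otherwise.

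Against ST vehicle the complex I median was 0.04 in HFHS, with 27 of 36 above 0 (45.5% of all genes). With normexp it turned to -0.10, with 3 above 0 and 33 below, and within the 3 slides that hold both groups it was 0.02, -0.0094 and 0.19 on slides 1, 2 and 5. In ST pollutants the median against ST vehicle was -0.06, with 8 above 0 (48.2% of all genes) and 28 below. Within slides 1, 2 and 5 it was -0.0031, -0.19 and 0.03. The ST vehicle array of slide 2 had the highest complex I mean of the controls, 5.19 against 5.08 and 5.06. The pollutant array of that slide stood at 5.00, and the other pollutant arrays at 5.02 to 5.06. In this comparison 5 subunits had an unadjusted p under 0.05, all lower in ST pollutants (6.29% of all genes), namely Ndufa11, Ndufb8, Ndufc1, Ndufs8 and Ndufv3. For Ndufv3 the probe used gave -0.22 and the other probes -0.08 and 0.10. In 5 subunits the groups did not overlap with ST pollutants lower (4.41% of all genes), namely Ndufa11, Ndufb8, Ndufc1, Ndufs6 and Ndufs8. Of these genes Ndufb8, Ndufs6, Ndufs8 and Ndufv3 are named after their values were seen.

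**Figure D2:**
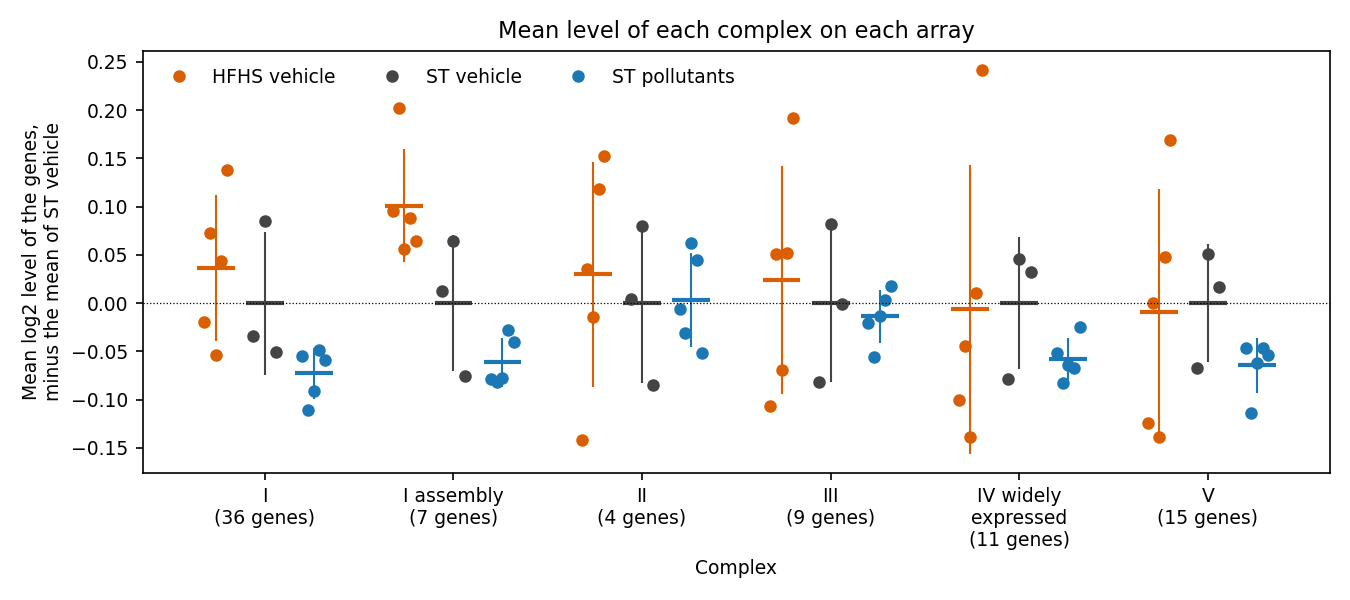
Mean log2 level of the tested genes of each complex on each array (points), minus the mean of the ST vehicle arrays, with the group mean (horizontal line) and SD (vertical line) for HFHS vehicle (n = 5), ST vehicle (n = 3) and ST pollutants (n = 5). The complex I mean of the pollutant arrays runs from 5.00 to 5.06 and that of the HFHS arrays from 5.06 to 5.25, and the assembly factors are the set whose HFHS and pollutant arrays do not overlap.

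Ndufc1 is a small accessory subunit of the membrane arm, and it had the smallest p of complex I between HFHS and ST pollutants. Its level was 5.04, 5.27, 5.10, 5.17 and 5.24 on the HFHS arrays, 5.01, 5.24 and 5.09 on ST vehicle, and 4.97, 4.95, 4.83, 4.86 and 4.97 on ST pollutants. All 5 pollutant arrays lay below all 8 arrays without the mixture. The difference HFHS minus ST pollutants was 0.25 ± 0.07 (SE; adjusted p = 0.0767 by limma), and over 28 alternatives the adjusted p ran from 0.022 to 0.578 and was under the threshold in 4.

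Ndufa11, an accessory subunit that anchors the membrane arm, had the smallest p of complex I between ST pollutants and ST vehicle. Its level was 2.37, 2.30, 2.26, 2.23 and 2.34 on the pollutant arrays and 2.50, 2.59 and 2.61 on ST vehicle, with no overlap. The difference was -0.27 ± 0.07 (SE; adjusted p = 0.128 by limma, 0.0739 to 1.000 over the alternatives). The HFHS arrays, at 2.44, 2.54, 2.36, 2.57 and 2.58, reached into both ranges.

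Ndufb3, another accessory subunit of the membrane arm, had the smallest p of complex I between HFHS and ST vehicle. It stood at 4.92, 4.95, 4.73, 4.69 and 4.96 on the HFHS arrays, at 4.68, 4.68 and 4.60 on ST vehicle and at 4.68, 4.58, 4.63, 4.60 and 4.62 on ST pollutants. Every HFHS array was above every other array, by a small margin for HFHS arrays 3 and 4. The difference from ST vehicle was 0.19 ± 0.08 (SE; adjusted p = 0.345 by limma, 0.16 to 0.816 over the alternatives), and that from ST pollutants was 0.23, with a 95% interval from 0.07 to 0.38.

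The assembly factors of complex I are chaperones and enzymes that help to build the complex and are not part of the finished enzyme. All 7 tested had a higher mean in HFHS vehicle than in ST pollutants, with a median difference of 0.16. Their mean level was 1.21 to 1.35 on the HFHS arrays and 1.07 to 1.12 on the pollutant arrays, with 1.07 to 1.21 on ST vehicle. The HFHS and pollutant arrays did not overlap in this mean, and the ST vehicle arrays lay across both.

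Ndufaf2 is an assembly factor that associates with late intermediates of complex I, and it was the 1 gene of the chain that was called. Its single probe lies at chr13:108843015-108843074 (mouse build mm9). Its level was 1.97, 1.89, 1.84, 1.79 and 1.75 on the HFHS arrays, 1.74, 1.70 and 1.71 on ST vehicle and 1.61, 1.52, 1.52, 1.61 and 1.55 on ST pollutants. The 3 groups did not overlap with each other, HFHS being highest and ST pollutants lowest. Ndufaf2 was higher in HFHS than in ST pollutants by 0.28 ± 0.06 (SE), which is 1.22-fold, with an adjusted p of 0.0231 by limma. HFHS was above ST pollutants on all 5 slides, by 0.36, 0.37, 0.32, 0.18 and 0.20. The differences from ST vehicle were 0.13 for HFHS (95% interval -0.02 to 0.28) and -0.15 for ST pollutants (-0.30 to -0.0039), neither of them called.

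The call for Ndufaf2 was kept under 19 of 28 alternatives, with adjusted p-values from 0.00711 to 0.388, and the direction under all 28. It was lost without HFHS array 1 (adjusted p = 0.0621), without HFHS array 2 (0.0669), without ST pollutants array 3 (0.0604) or 5 (0.051), without the acinar-high HFHS arrays 3, 4 and 5 together (0.0637, at a larger difference of 0.37), and without slide 1 (0.123). It was also lost with normexp (0.388), with no filter on dim probes (0.0707) and with the replicate number as a block (0.0514).

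Ndufaf4, which acts early in the assembly of complex I, is named after its values were seen. It had the smallest p among the assembly factors in both comparisons with ST vehicle. Its level was 1.77, 1.82, 1.87, 1.86 and 1.80 in HFHS and 1.82, 1.79, 1.59, 1.78 and 1.83 in ST pollutants, against 1.53, 1.56 and 1.20 in ST vehicle. All 10 arrays of the other groups were above the 3 control arrays, 1 of which, ST vehicle 3, stood well below the other 2. The difference was 0.39 ± 0.09 for HFHS (SE; adjusted p = 0.0859 by limma, 0.0393 to 0.594 over the alternatives) and 0.33 ± 0.09 for ST pollutants (adjusted p = 0.133, 0.0714 to 0.564). Both comparisons use the same 3 arrays, and neither was called. Over the 92 genes, Ndufaf2, Ndufaf4 and Ndufb3 were the 3 in which every HFHS array lay above every ST vehicle array (3.82% of all genes), and Ndufaf4, Cox7a2l and Uqcrfs1 the 3 in which every pollutant array did (3.93%).

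**Figure D3:**
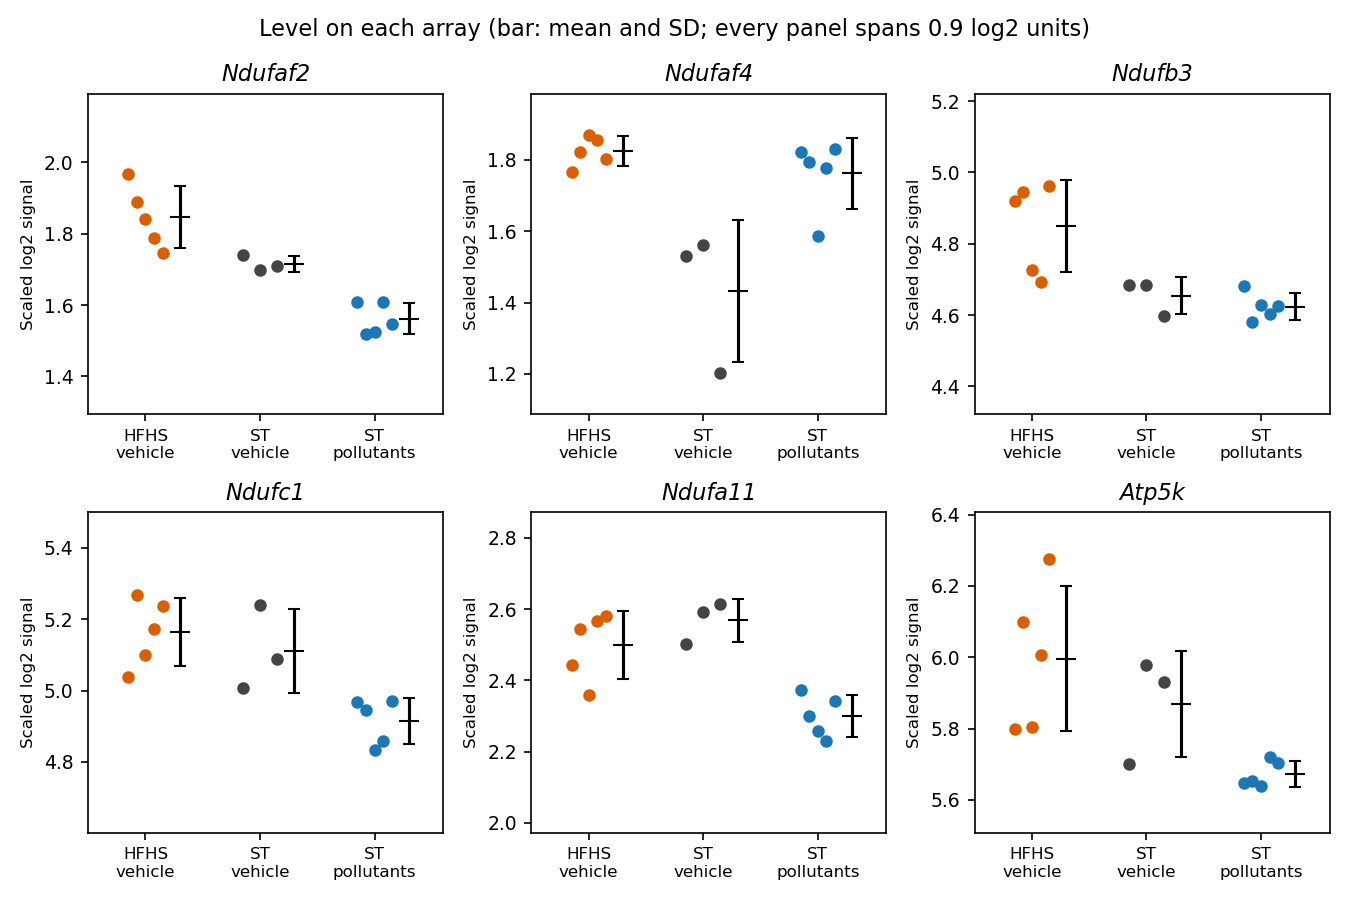
Scaled log2 signal of 6 genes on each array (points) with the group mean and SD (bar to the right) for HFHS vehicle (n = 5), ST vehicle (n = 3) and ST pollutants (n = 5), each panel with the same height of log2 units. For Ndufaf2 the HFHS arrays lie from 1.75 to 1.97 and the pollutant arrays from 1.52 to 1.61, and for Ndufaf4 the ST vehicle arrays lie lowest, from 1.20 to 1.56.

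The promoters of Ndufaf2 and Ndufaf4 are shown because these are the called assembly factor and the one with the largest differences from the controls. The sequences are the 250 bases before the start of the gene in RefSeq (GRCm38.p6), 5′ to 3′ on the strand of the gene. Ndufaf2 lies on the minus strand at chr13:108158626-108158875, and the capitals mark 2 adjacent CCAAT boxes (CCAAT on either strand), which lie on opposite strands. Ndufaf4 lies on the plus strand at chr4:24897833-24898082, and the capitals mark the NRF1 motif GCGCATGCG.
Ndufaf2: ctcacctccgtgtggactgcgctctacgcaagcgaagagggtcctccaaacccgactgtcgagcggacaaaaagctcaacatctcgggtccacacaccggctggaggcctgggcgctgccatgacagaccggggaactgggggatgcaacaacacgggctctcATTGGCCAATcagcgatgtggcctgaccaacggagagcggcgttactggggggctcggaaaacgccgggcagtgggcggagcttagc
Ndufaf4: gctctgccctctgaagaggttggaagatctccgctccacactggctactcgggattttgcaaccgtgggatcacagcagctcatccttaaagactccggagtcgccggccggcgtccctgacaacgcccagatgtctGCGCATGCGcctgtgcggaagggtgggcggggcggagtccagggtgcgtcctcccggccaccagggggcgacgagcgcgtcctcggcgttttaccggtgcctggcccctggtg

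Promoters were found for 76 of the 94 genes (82 promoters, some genes having several), and each motif was searched on both strands in the same window of 250 bases. The NRF1 motif GCGCATGCG stood in 7 of the 82 (8.54%), against 1.45% of all 32851 promoters in the table. The ETS motif CCGGAAG, of the family to which GABP belongs, stood in 13 (15.9% against 6.91%), the YY1 motif AAGATGGCG in 2 (2.44% against 0.606%) and CCAAT in 35 (42.7% against 33.8%). TATAAA stood in 7 (8.54% against 12.4%). NRF1, GABP and YY1 are transcription factors long known for nuclear genes of the respiratory chain. A match is only the presence of the letters, and the motif shares have no test. The NRF1 letters were chosen after a first search of the promoters with a longer form, so their share is not an independent result.

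Complex II oxidizes succinate and is also an enzyme of the tricarboxylic acid cycle. Its 4 subunits had median differences of 0.02 for HFHS minus ST vehicle, 0.00072 for ST pollutants minus ST vehicle and 0.04 for HFHS minus ST pollutants. Sdha, the flavoprotein, stood between 4.66 and 4.80 in HFHS, 4.57 and 4.83 in ST vehicle and 4.73 and 4.82 in ST pollutants. The smallest p against ST vehicle was that of Sdhd, a membrane anchor, in both comparisons, at 0.10 ± 0.09 for HFHS (SE; adjusted p = 0.802 by limma, 0.423 to 1.000 over the alternatives) and 0.08 ± 0.09 for ST pollutants (adjusted p = 0.854, 0.753 to 1.000). Between HFHS and ST pollutants it was that of the other anchor, Sdhc, at 0.05 ± 0.07 (adjusted p = 0.844, 0.648 to 0.981). The difference of Sdhd from ST vehicle in HFHS turned to -0.016 with normexp and -0.019 without the acinar-high arrays, and that of Sdhc between HFHS and ST pollutants turned to -0.062 and -0.0071.

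Complex III hands electrons from coenzyme Q to cytochrome c. Its 9 subunits had medians of 0.04, 0.01 and 0.04 in the 3 comparisons, in the same order. The Rieske iron-sulfur protein Uqcrfs1 was tight in the controls, at 5.36, 5.34 and 5.35, and stood at 5.33, 5.44, 5.46, 5.45 and 5.59 in HFHS and at 5.38, 5.37, 5.49, 5.53 and 5.51 in ST pollutants. All 5 pollutant arrays were above the controls and 1 HFHS array was below them. The difference for HFHS was 0.11 ± 0.07 (SE; adjusted p = 0.692 by limma, 0.325 to 1.000 over the alternatives), -0.07 with normexp, and that for ST pollutants was 0.11, with a 95% interval from -0.05 to 0.27. Cyc1, cytochrome c1, had a difference of -0.19 ± 0.11 between ST pollutants and ST vehicle (SE; adjusted p = 0.584, 0.37 to 1.000), with ST vehicle 2 at 5.87 standing above the other 12 arrays, which ran from 5.27 to 5.62. The core protein Uqcrc2 had a difference of 0.13 ± 0.07 between HFHS and ST pollutants (SE; adjusted p = 0.389, 0.167 to 0.946), and -0.02 with normexp.

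The 15 tested subunits of complex V had medians of -0.0078, -0.06 and 0.06. The catalytic head, F1, and the membrane and stalk part, Fo, are listed apart: the 5 subunits of F1 had a median difference HFHS minus ST pollutants of -0.0025 and the 10 of Fo and the stalk one of 0.09. Atp5b, the catalytic beta subunit, stood at 7.08, 7.13, 7.02, 7.26 and 7.25 in HFHS and at 7.25, 7.44 and 7.24 in ST vehicle, a difference of -0.16 ± 0.09 (SE; adjusted p = 0.515 by limma, 0.417 to 0.822 over the alternatives). Atp5g1, which encodes a form of the c subunit of the rotor ring, differed by -0.23 ± 0.10 between ST pollutants and ST vehicle (SE; adjusted p = 0.374, 0.239 to 1.000), and a second probe of the gene gave 0.10.

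Atp5k, the small membrane subunit e, had the largest difference of complex V. It stood at 5.80, 6.10, 5.80, 6.0 and 6.28 on the HFHS arrays, at 5.70, 5.98 and 5.93 on ST vehicle and at 5.65, 5.65, 5.64, 5.72 and 5.70 on ST pollutants. The pollutant arrays lay below every HFHS array and touched the lowest control array. HFHS minus ST pollutants was 0.32 ± 0.10 (SE; adjusted p = 0.0905 by limma, 0.00845 to 0.482 over the alternatives, under the threshold in 4 of 28), and the difference was above 0 on all 5 slides, from 0.15 to 0.57.

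Cox7a2l, set apart above as a supercomplex factor, lay on the other side of 0 from most of the chain between HFHS and ST pollutants. It is named after its values were seen, and supercomplexes were not measured. Its level was 5.36, 5.28, 5.42, 5.30 and 5.43 in HFHS, 5.28, 5.43 and 5.24 in ST vehicle and 5.51, 5.47, 5.60, 5.50 and 5.66 in ST pollutants. The pollutant arrays were above all 8 others. HFHS minus ST pollutants was -0.19, with a 95% interval from -0.34 to -0.05, and ST pollutants minus ST vehicle was 0.23 (0.07 to 0.40), neither of them called. Over the 92 genes the groups did not overlap in 7 genes with HFHS above ST pollutants (2.75% of all genes) and in 1, Cox7a2l, with HFHS below (4.2%).

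Complex IV has 11 widely expressed subunits on the array and 6 tested tissue isoforms, and the isoforms were the variable members of the chain. The median SD within groups was 0.124 log2 units for the widely expressed subunits and 0.417 for the isoforms. The widely expressed subunits had medians of -0.03, -0.07 and 0.07 in the 3 comparisons. Cox7c had their smallest p between HFHS and ST pollutants, at 0.15 ± 0.07 (SE; adjusted p = 0.301 by limma, 0.0823 to 0.967 over the alternatives). Cox4i1, a regulatory subunit, stood between 6.64 and 7.06 in HFHS, 6.62 and 6.91 in ST vehicle and 6.69 and 6.96 in ST pollutants, and its differences from ST vehicle were -0.02 (95% interval -0.26 to 0.22) and 0.03 (-0.21 to 0.27). For Cox6b1 they were -0.10 (-0.28 to 0.07) and -0.17 (-0.34 to 0.0032), for Cox7a2 -0.01 (-0.25 to 0.22) and -0.12 (-0.36 to 0.11), for Cox7b 0.11 (-0.19 to 0.41) and -0.07 (-0.37 to 0.23), and for Ndufa4 -0.03 (-0.23 to 0.16) and -0.02 (-0.22 to 0.17).

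Cox8b and Cox6a2 are the forms of subunits 8 and 6a found in skeletal muscle and heart, and Cox8b also in brown fat. Cox8b (probe at chr7:148084852-148084911, mm9) stood at -3.52, -5.37, 0.48, -4.59 and -3.93 on HFHS arrays 1 to 5, at -0.10, -2.84 and -0.42 on ST vehicle and at 0.12, 1.47, -3.42, -0.59 and -2.67 on ST pollutants. It was not well above background on HFHS arrays 2 and 4. Cox6a2 (probe at chr7:135349160-135349219, mm9) stood at -1.93, -2.66, 0.97, -2.19 and -2.39 on the HFHS arrays, at 0.73, -2.33 and 0.59 on ST vehicle and at 0.83, 1.18, -1.85, 0.01 and -1.44 on ST pollutants. High and low arrays occurred in every group. The HFHS minus ST vehicle difference was -2.26 for Cox8b, with a 95% interval from -5.19 to 0.67, and -1.30 for Cox6a2 (-3.45 to 0.84). The ST pollutants minus ST vehicle differences were 0.11 (-2.83 to 3.04) and 0.08 (-2.06 to 2.23).

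The same 6 arrays were highest in both isoforms and in the skeletal muscle markers, a list of 14 of which 11 were tested. They were HFHS 3, ST vehicle 1 and 3 and ST pollutants 1, 2 and 4. On these arrays the mean of the 11 markers was -0.41 to 0.41, Cox8b was -0.59 to 1.47 and Cox6a2 was 0.01 to 1.18. On the other 7 the marker mean was -4.26 to -2.01, Cox8b -5.37 to -2.67 and Cox6a2 -2.66 to -1.44. The log2 of the summed level of the 14 markers was 1.49 to 4.70 in HFHS, 1.90 to 4.47 in ST vehicle and 2.20 to 4.95 in ST pollutants. On 4 of the 5 HFHS arrays (1, 2, 4 and 5) the defining markers Ckm and Myh1 were not well above background, and Acta1 and Tnni2 were so on all 13 arrays. Cox8a and Cox6a1, the widely expressed partners, stayed between 6.71 and 7.06 and between 7.83 and 8.26 over the same arrays. The part of muscle RNA in the values of Cox8b and Cox6a2 was not tested.

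**Figure D4:**
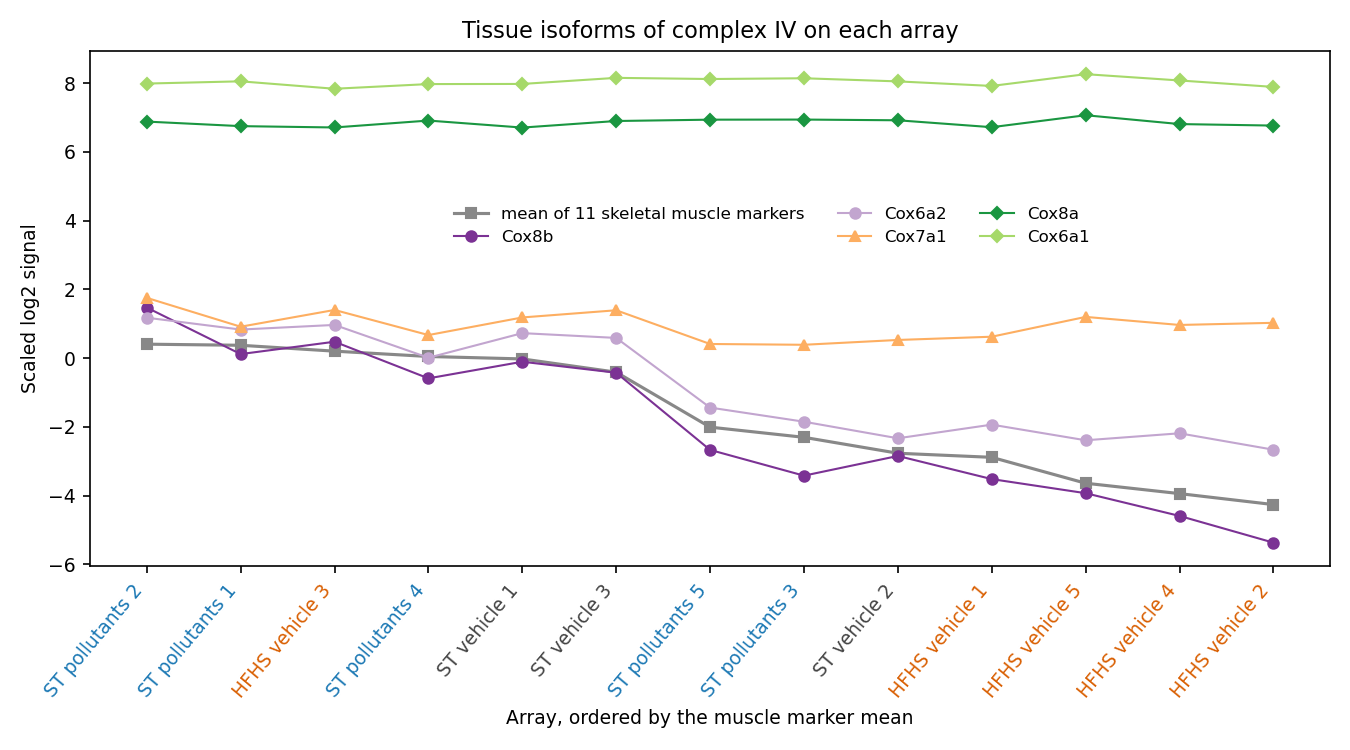
Scaled log2 signal of 3 tissue isoforms of complex IV (Cox8b, Cox6a2, Cox7a1), of 2 widely expressed partners (Cox8a, Cox6a1) and the mean of 11 skeletal muscle markers on each of the 13 arrays, ordered by that mean. Cox8b, Cox6a2 and the markers are all lower on the last 7 arrays than on the first 6, while Cox8a stays between 6.71 and 7.06.

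The promoters of Cox8a and Cox8b are printed side by side as the steady and the variable form of the same subunit. Both lie on the minus strand (GRCm38.p6, RefSeq), Cox8a at chr19:7217617-7217866 and Cox8b at chr7:140900447-140900696. The capitals mark a CCAAT box in Cox8a, read on the opposite strand, and the E-box CAGCTG in Cox8b. CAGCTG stood in 7.32% of the 82 promoters of the chain and in 13% of all promoters, and the NRF1, ETS and YY1 letters were not in either window. The motif of the muscle factor MEF2, searched in the same way, stood in 0 of the 82 promoters and in 2.92% of all.
Cox8a: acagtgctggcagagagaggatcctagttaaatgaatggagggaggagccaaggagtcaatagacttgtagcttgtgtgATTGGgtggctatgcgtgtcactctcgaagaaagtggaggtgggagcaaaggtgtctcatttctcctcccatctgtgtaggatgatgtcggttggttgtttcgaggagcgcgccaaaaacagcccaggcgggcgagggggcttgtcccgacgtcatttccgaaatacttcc
Cox8b: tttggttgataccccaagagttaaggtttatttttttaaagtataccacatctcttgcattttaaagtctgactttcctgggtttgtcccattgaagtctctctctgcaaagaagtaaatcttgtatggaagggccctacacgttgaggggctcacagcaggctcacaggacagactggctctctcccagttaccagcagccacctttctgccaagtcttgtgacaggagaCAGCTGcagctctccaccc

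Cox7a1, the heart and muscle form of subunit 7a that is also abundant in brown fat, was well above background on all arrays. It stood at 0.62, 1.03, 1.40, 0.96 and 1.20 in HFHS, at 1.18, 0.53 and 1.39 in ST vehicle and at 0.91, 1.75, 0.39, 0.67 and 0.41 in ST pollutants. Its highest array was ST pollutants 2, on which the mean of the 6 tested adipocyte markers was 0.21, against -3.43 to -1.57 on the other 12 arrays. On that array the brown-fat uncoupling protein Ucp1 stood at 1.73 and Cidea at 1.20. Elsewhere Ucp1 stood between -7.69 and -4.42 and was well above background on 1 further array. Of the 11 adipocyte markers, 10 were well above background on ST pollutants 2 and 4 to 9 on the other arrays, and the log2 of their summed level was 1.07 to 1.81 in HFHS, 1.73 to 2.42 in ST vehicle and 1.08 to 4.17 in ST pollutants. Cox8b also had its highest value, 1.47, on ST pollutants 2. The part of fat RNA in these values was not tested. The Cox7a1 differences from ST vehicle were 0.0086 in HFHS (95% interval -0.65 to 0.66) and -0.21 in ST pollutants (-0.86 to 0.45).

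The other isoforms had a smaller SD within groups than Cox7a1 (0.447), but only Ndufa4l2, at 0.134, was near the median of the 92 genes, 0.117. Cox4i2 and Cox6b2 had SDs of 0.387 and 0.363. Ndufa4l2, a relative of Ndufa4 known as a hypoxia-induced gene, stood at -1.26, -1.25 and -1.24 in ST vehicle, at -1.50, -1.44, -1.46, -1.57 and -1.70 in HFHS and at -1.69, -1.23, -1.50, -1.47 and -1.66 in ST pollutants. All 5 HFHS arrays and 4 of the 5 pollutant arrays were below the controls. The differences were -0.28 ± 0.10 (SE; adjusted p = 0.285 by limma, 0.145 to 0.71 over the alternatives) and -0.26 ± 0.10 (adjusted p = 0.328, 0.12 to 1.000). Cox4i2, the lung form of subunit 4, differed from ST vehicle by 0.07 (95% interval -0.50 to 0.65) and -0.0073 (-0.58 to 0.56), and the testis form Cox6b2 by 0.03 (-0.51 to 0.57) and -0.0029 (-0.54 to 0.53).

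The 13 subunits encoded in mitochondrial DNA were all tested, and 0 were called in any of the 3 comparisons, with 0 at an unadjusted p under 0.05 in either direction. Over all genes 0.688%, 1.01% and 3.88% were called, so that 0 of 13 called says little. In a given direction 4.98% to 10.7% of all genes had an unadjusted p under 0.05. The medians of the 13 were -0.07 for HFHS minus ST vehicle, -0.04 for ST pollutants minus ST vehicle and 0.0082 for HFHS minus ST pollutants. Their spread within groups, with a median SD of 0.186, was wider than that of the nuclear subunits other than tissue isoforms, at 0.116, with no test of the difference. Their levels also differed between slides, with overlap. The mean of the 13 was 6.47 to 6.72 on slide 5 and 6.21 to 6.53 on the other 4 slides. ND2, a membrane subunit of complex I, stood at 7.68, 7.68 and 7.67 on the HFHS, ST vehicle and ST pollutants arrays of slide 5, above the 6.94 to 7.38 of the other 10 arrays, whatever the group. CYTB, another of the 13, did not separate in this way. It stood at 8.29 to 8.62 on slide 5 and at 8.04 to 8.40 on slide 3.

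**Figure D5:**
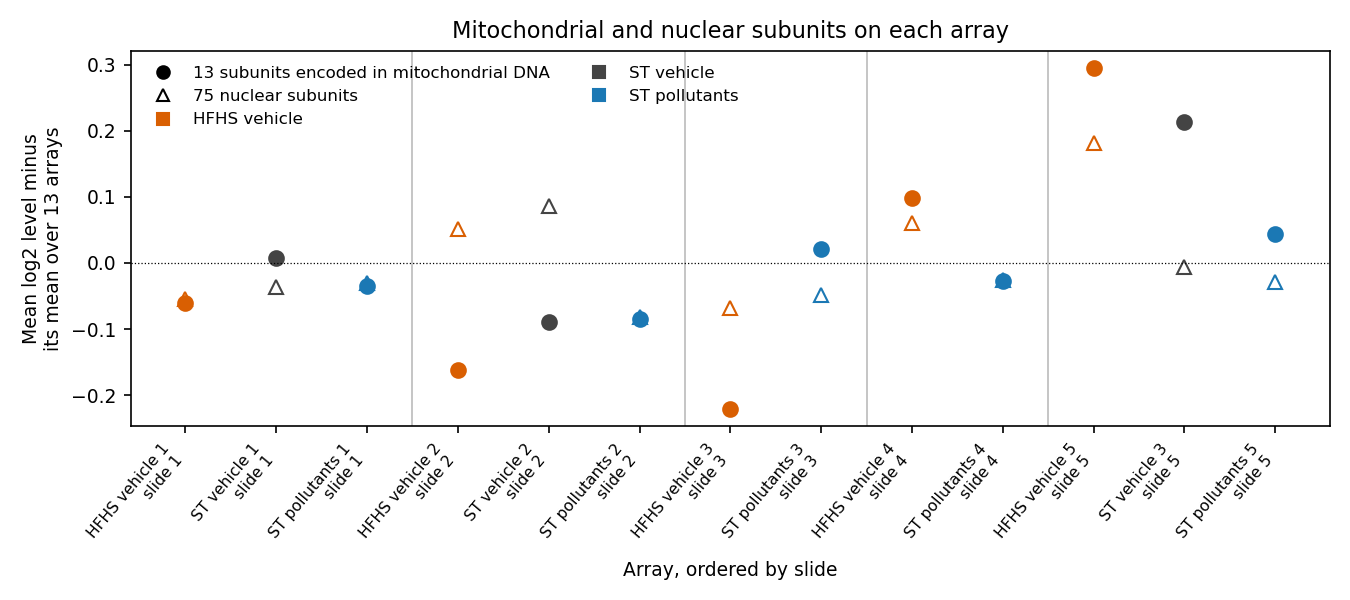
Mean log2 level of the 13 subunits encoded in mitochondrial DNA (filled circles) and of 75 nuclear subunits (open triangles) on each array, each minus its own mean over the 13 arrays, ordered by slide and coloured by group. The 3 arrays of slide 5 all lie above 0 in the mitochondrial set, whose means there run from 6.47 to 6.72.

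Genes around the chain were looked up from lists of assembly factors, coenzyme Q synthesis, regulators, tricarboxylic acid cycle enzymes and carriers. Among the 19 tested assembly factors of complex IV, Cox18 and Cox20, which insert and stabilize subunit 2, were higher in HFHS than in ST pollutants. Among the 18 tested assembly factors of the other complexes, Uqcc2 (complex III) and Sdhaf4 (complex II) were higher in HFHS too. These 4 called genes were 4 of 37, where 1.58% of all genes were called higher in this comparison.

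Uqcc2 stood at 3.43, 3.47, 3.25, 3.48 and 3.58 in HFHS, 3.18, 3.34 and 3.28 in ST vehicle and 3.05, 3.01, 2.95, 3.03 and 2.94 in ST pollutants. The pollutant arrays lay below all others, and HFHS was 1.36-fold higher (adjusted p = 0.00605 by limma). Cox20 stood at 3.00 to 3.17 in HFHS, with a median of 3.04, and at 2.49 to 2.74 in ST pollutants, with a median of 2.67, a difference of 1.34-fold (adjusted p = 0.00727). Cox18 was 1.32-fold higher (adjusted p = 0.0149) and Sdhaf4 1.26-fold higher (adjusted p = 0.0337). Against ST vehicle none of the 4 was called in either group. Leaving out 1 array, Cox18 differed from ST vehicle by -0.0061 to 0.089 in HFHS and by -0.40 to -0.32 in ST pollutants. For Cox20 these ranges were 0.19 to 0.27 and -0.23 to -0.15, and for Sdhaf4 0.17 to 0.25 and -0.17 to -0.087. Without slide 1 none of the 4 was called, and without the acinar-high arrays Cox20 and Sdhaf4 were not called. Over all 28 alternatives Uqcc2 was called in 26, Cox20 in 25, Cox18 in 24 and Sdhaf4 in 15.

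Against ST vehicle, Coa6, a copper-handling assembly factor of complex IV, was higher in ST pollutants, the 1 called of the 19, where 0.559% of all genes were called higher. It stood at 2.39, 2.56, 2.56, 2.75 and 2.51 there and at 2.11, 2.04 and 1.92 in ST vehicle, without overlap, and was 1.44-fold higher (adjusted p = 0.0308 by limma, 0.0156 to 0.357 over the alternatives and under the threshold in 14 of 28). HFHS arrays ran from 2.31 to 2.62, also above the controls, at an adjusted p of 0.0694 in the same model. The call in ST pollutants was lost when any of the 3 ST vehicle arrays was left out.

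Among 14 tested genes of coenzyme Q synthesis and cytochrome c, Coq8a and Coq10b changed between ST pollutants and ST vehicle, 2 of 14 where 1.01% of all genes were called. Coq8a, a kinase-like protein needed for coenzyme Q synthesis, was lower: it stood at 2.81, 2.85, 3.65, 3.61 and 2.71 in ST pollutants and at 4.13, 4.44 and 4.36 in ST vehicle, a difference of -1.19 ± 0.23 (SE; adjusted p = 0.0345 by limma). Coq10b, a coenzyme Q-binding protein, was 2.56-fold higher (adjusted p = 0.0234), at 0.88 to 1.45 in ST pollutants against -0.39 to 0.12 in ST vehicle. The calls held in 11 and 20 of 28 alternatives, and each was lost when ST vehicle array 1 or 3 was left out. In HFHS both genes lay on the same side of ST vehicle, with 0 called. Leaving out 1 array gave HFHS minus ST vehicle differences of 0.85 to 1.145 for Coq10b and -0.50 to -0.34 for Coq8a. HFHS minus ST pollutants was -0.51 to -0.21 and 0.67 to 0.91 in the same way, with 0 called. Both groups are set against the same 3 ST vehicle arrays.

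Esrra, the oestrogen-related receptor that binds promoters of many respiratory chain genes, was the only called gene of the 18 regulators. It stood at 3.01 to 3.18 in HFHS and 2.84 to 3.24 in ST pollutants, against 2.32 to 2.68 in ST vehicle, which both groups exceeded on every array. It was 1.48-fold higher in HFHS (adjusted p = 0.0303 by limma, where 0.236% of all genes were called higher) and 1.43-fold higher in ST pollutants (adjusted p = 0.0418), both set against the same 3 arrays. The calls held in 13 and 7 of 28 alternatives. Of the 18 enzymes of the tricarboxylic acid cycle and the 11 tested carriers 0 were called in any comparison by limma. Over all genes 0.688%, 1.01% and 3.88% were called in the 3 comparisons. At an unadjusted p under 0.05, 3 enzymes and 1 carrier were higher in ST pollutants than in ST vehicle (5.89% of all genes). In the same comparison 1 enzyme was lower (6.29%), and 1 enzyme was higher in HFHS than in ST vehicle (4.98%).

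Each value stands for a single probe, the one of highest mean. For 31 genes of the chain more than 1 probe passed, and over their 42 other probes the difference had the same sign as that of the probe used in 29, 29 and 33 cases in the 3 comparisons. The median gap between the differences of the 2 probes was 0.047, 0.043 and 0.032 log2 units, about the size of the medians reported for the complexes, and the widest gaps were those of Ndufaf5 (0.884 and 0.996) and Ndufa3 (0.753).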

How the data were processed

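The spot intensity values, on a linear scale, come from Agilent Feature Extraction 11.5.1.1, run by the authors, per the file headers. A second deposited table, of values that look like log2 and were made comparable between arrays, served as an alternative. Here the processed signal of 39429 probes was log2-transformed, control spots left out and outlier spots set to missing, and each array's 75th percentile subtracted. A probe was kept if some group had it well above background on all its arrays (25002 probes), and the probe of highest mean stood for a gene. limma 3.58.1 in R 4.3.3 fitted the 3 groups to all 13 arrays, two-sided, after the procedure was tested on simulated data. Probe positions are on mm9, as in the files.

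The genes and lists were chosen with earlier results of these data known, and the NRF1 letters after a first search of the promoters with a longer form. Genes named with values were those called, the smallest p of each complex and comparison, and the isoforms of complex IV with their partners. Called genes of the pathway lists were named too. Others, among them Ndufaf4, are marked as named after their values were seen. Sdha, ND2, CYTB and single cell type markers were named outside these rules without that mark. The 3 ST vehicle arrays limit the precision. Alternatives left out each array in turn or changed background correction, scaling, filter, probe choice, slide block, replicate block, array weights and the arrays fitted.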

Additional observations from a re-analysis of the deposited data

Results flagged for a closer look

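In 82 groups of 5 arrays, an array that stood apart from the other 4 by Dixon's criterion was found 4 times, where chance gives about 1 in 20. Cox6a2 stood at 0.97 on HFHS array 3, with the next array at -1.93. Cox8a stood at 7.06 on HFHS array 5, with the next at 6.81. Ndufaf4 stood at 1.59 on ST pollutants array 3, with the next at 1.78. The mean of the complex V subunits was 5.86 on ST pollutants array 2, with the next at 5.92.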

How the results depend on the processing

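Of 270 medians of a complex or of all tested members under alternatives other than leaving out 1 array, 253 moved by less than the spread between replicates. This count concerns the size of the shift and not the direction, since a median near 0 can change sign within that spread. Numbers are given for HFHS minus ST vehicle, then ST pollutants minus ST vehicle, then HFHS minus ST pollutants where 3 follow each other. With normexp the medians were -0.11 for all members and -0.10, -0.087, -0.11, -0.13 and -0.14 for complexes I to V in HFHS minus ST vehicle, and -0.061 for all members and -0.044, -0.11, -0.10, -0.054 and -0.096 for complexes I to V in HFHS minus ST pollutants. It also turned Sdhd to -0.016 and Uqcrfs1 to -0.066 in the former, and Sdhc to -0.062 and Uqcrc2 to -0.017 in the latter, and the cause was not tested. HFHS minus ST pollutants gave a median over all members of 0.15 with quantile normalization and 0.14 in the authors' deposited table, where complex II in HFHS minus ST vehicle stood at 0.11. The probe with the lowest mean turned Atp5g1 to 0.10 in ST pollutants minus ST vehicle. Without the acinar-high arrays Sdhd turned to -0.019 in HFHS minus ST vehicle, and Sdhc to -0.0071 and the complex II median to -0.061 in HFHS minus ST pollutants.

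Members called between HFHS and ST pollutants, 1 in the main setting, numbered 7 with quantile normalization or the deposited table, 6 with the slide as a random block, 4 with array weights, 2 with the probe of lowest mean and 0 with normexp, with no filter, without the acinar-high arrays or without slide 1, which leave-out choices were added after the data were seen. The random block called 1, Ndufaf4, between HFHS and ST vehicle. Leaving out 1 array gave 0 to 1, and 0 in both other comparisons.

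All genes called (134, 196 and 756) became 45, 22 and 292 with normexp, 55, 70 and 361 with no filter, 337, 447 and 1653 with the random slide block, 4, 92 and 291 without the acinar-high arrays, and 1, 3 and 1 without slide 1. The slide as a fixed block gave 84 and 67 and the 2 groups alone 25 and 40 for the comparisons with ST vehicle, the probe of lowest mean 119 for ST pollutants, and array weights 1252 for HFHS against ST pollutants. Leaving out 1 array gave 25 to 140, 39 to 175 and 349 to 713, the lowest without ST vehicle array 1 (25 and 39) and without HFHS array 2 (349).

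Leaving out 1 array gave median ranges of -0.021 to 0.056, -0.062 to -0.016 and 0.034 to 0.104 for all members, 0.018 to 0.085, -0.083 to -0.021 and 0.075 to 0.13 for complex I, -0.021 to 0.063, -0.036 to 0.041 and -0.0037 to 0.076 for complex II, -0.023 to 0.076, -0.050 to 0.039 and -0.027 to 0.064 for complex III, -0.11 to -0.0022, -0.11 to -0.0010 and -0.0057 to 0.11 for complex IV, and -0.046 to 0.019, -0.104 to -0.013 and 0.023 to 0.085 for complex V.

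Samples of the same number correlated at -0.1685 to 0.5621 in their deviations from the group means (11 pairs). They did not meet the criterion for pairing, a minimum correlation for every pair. Samples of the same slide correlated at -0.0207 to 0.5621 (11 pairs), ST vehicle 3 lying on slide 5. The lowest same-slide pair, HFHS vehicle 2 with ST pollutants 2, missed the criterion too, and the next lowest stood at 0.1291. Pairs of other numbers ran from -0.4076 to 0.2758 (44 pairs), the highest being ST vehicle 3 with ST pollutants 5, which share slide 5. With the slide as a random block the fitted correlation was 0.2773. The main model holds no slide term, so its intervals and p-values leave that correlation out. With the replicate number as a block, 53, 44 and 564 genes and 0, 0 and 0 members were called, and the complex IV median of ST pollutants minus ST vehicle was -0.13.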
